A study of Mus musculus with 64 samples.

Results

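Tbx21, Eomes, Id2, Gata3, Zeb2, Ikzf2, Tcf7, Foxo1, Prdm1 and Tox encode transcription factors that shape the lineage, maturation and persistence of natural killer (NK) cells, the innate lymphocytes that kill infected or transformed cells. These 10 genes were chosen by symbol out of 36273 in the deposited count table, each matched 1 row, and all 10 were among the 10723 genes kept by the filter on low counts (edgeR's filterByExpr with a minimum count of 10). Bulk libraries of transcript 3′ ends were made from 64 samples of mouse spleen NK cells, with 2 to 4 libraries in each of 18 groups. Before a 5 h treatment, the cells spent 5 days in culture with IL-2 at a low dose and a complex of IL-15 and IL-15 receptor alpha. EP2/EP4KO mice (DKO, 18 libraries) carried GzmbCre with Ptger2-/- and Ptger4fl/fl, so that Cre driven by Gzmb removes the floxed Ptger4 gene in cells that have used that promoter. EP2KO mice (24 libraries) were Ptger2-/-Ptger4fl/fl and so had the same floxed Ptger4, with no Cre named. WT mice (22 libraries) were C57BL/6J, with neither the Ptger2 deletion nor the floxed allele. Ptger2 and Ptger4 encode EP2 and EP4, which are among the receptors of the lipid mediator prostaglandin E2 (PGE2). Cells received conditioned medium (CM) from control BRAFV600E tumour cells, which secrete PGE2, or PGE2 at 100 ng/ml, or neither (untreated). In the stimulated groups the last 4 h, after 1 h of treatment, were spent under antibody to NK1.1, an activating receptor, and in the unstimulated groups there was no antibody. The age and sex of the mice were not given in the sources used here.

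T-bet (Tbx21) and Eomes are related T-box factors that direct NK cell development and effector function, and Zeb2 is a repressor that acts with T-bet in terminal maturation. Id2 sequesters E proteins and is needed for the NK lineage, while Gata3, Tox and Tcf7 (TCF-1) act early in the development of innate lymphocytes. Foxo1 and TCF-1 are linked in lymphocytes to quiescence, lymph node homing and long life, Blimp-1 (Prdm1) to terminal differentiation, and Helios (Ikzf2) is an Ikaros family factor whose loss or gain alters NK cell reactivity. EP2 and EP4 couple to the G protein Gs and raise cyclic AMP, which acts through protein kinase A and CREB.

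In stimulated WT and EP2KO cells, CM and PGE2 moved Tcf7 and Foxo1 in one direction and Tbx21 and Zeb2 in the other, and the promoters of these 4 genes are shown for that reason. The sequences are RefSeq windows on GRCm38.p6, each from 250 bases before to 50 bases after a transcript start, and 8 of the 10 genes had such windows, 12 in all; Ikzf2 and Tox were not matched. Each window was searched on both strands for TGACG, the core of the CREB motif, and for GTAAACA, a FOXO motif, and matches are in capitals. TGACG was found in 3 of the 12 windows and in 20.8% of the 32851 RefSeq promoter windows of the mouse, and GTAAACA was found in 2 of the 12 windows and in 3.65% of all windows. The Tcf7 window with GTAAACA is at chr11:52282546-52282845, the Foxo1 window at chr3:52268087-52268386, the Tbx21 window at chr11:97115282-97115581 and the Zeb2 window with TGACG at chr2:45113230-45113529; Foxo1 is on the plus strand and the other genes are on the minus strand.
Tcf7: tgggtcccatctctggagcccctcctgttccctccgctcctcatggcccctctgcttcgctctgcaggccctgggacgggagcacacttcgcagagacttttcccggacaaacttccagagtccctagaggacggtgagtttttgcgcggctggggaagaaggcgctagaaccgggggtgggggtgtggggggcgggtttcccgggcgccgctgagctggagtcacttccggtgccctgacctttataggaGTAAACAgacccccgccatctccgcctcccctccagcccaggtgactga
Foxo1: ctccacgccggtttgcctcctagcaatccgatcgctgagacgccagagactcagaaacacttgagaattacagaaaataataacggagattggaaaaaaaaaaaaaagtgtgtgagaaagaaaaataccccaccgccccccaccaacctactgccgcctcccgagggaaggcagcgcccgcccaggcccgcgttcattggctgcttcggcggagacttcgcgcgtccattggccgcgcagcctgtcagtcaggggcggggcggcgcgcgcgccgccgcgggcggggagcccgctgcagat
Tbx21: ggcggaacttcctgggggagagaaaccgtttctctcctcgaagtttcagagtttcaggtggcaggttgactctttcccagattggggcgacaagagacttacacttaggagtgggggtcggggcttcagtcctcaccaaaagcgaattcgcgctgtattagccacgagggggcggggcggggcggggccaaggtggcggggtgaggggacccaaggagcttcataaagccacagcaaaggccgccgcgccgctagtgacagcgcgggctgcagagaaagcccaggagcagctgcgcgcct
Zeb2: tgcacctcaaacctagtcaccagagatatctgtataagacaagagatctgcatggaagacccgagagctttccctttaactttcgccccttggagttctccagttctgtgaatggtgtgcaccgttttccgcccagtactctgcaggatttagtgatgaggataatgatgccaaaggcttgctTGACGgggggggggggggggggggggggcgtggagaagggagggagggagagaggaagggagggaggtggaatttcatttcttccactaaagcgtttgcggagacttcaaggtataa

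Neither motif was in the windows of Foxo1 and Tbx21, and the window of Prdm1 held both; the other 2 windows with TGACG were overlapping windows of Zeb2. A match describes letters only, and binding of any factor was not measured. Zeb2 had 4 windows and Tcf7 had 2, because RefSeq lists several starts for these genes. Over the whole gene, in GENCODE M21 for GRCm38, Tcf7 spans chr11:52252371-52283014, Foxo1 chr3:52268336-52353221, Tbx21 chr11:97098071-97115331 and Zeb2 chr2:44983632-45117395. Taken singly, genes overlapping any of the 10 held at most 2.61% of the counts of the gene they overlap. Ikzf2 was overlapped by Gm28112, Gm29112 and Gm29114, with 2.51%, 1.56% and 0.07%. Some overlapping genes of Zeb2 and Tcf7 had no row in the count table.

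Libraries held 753973 to 1693750 counts, with a median of 1256163, and levels are given in CPM, which scales each library's counts to a common total. Over the 64 libraries the counts behind 1 value ran from 530 to 1894 for Id2 and from 6 to 33 for Prdm1, the gene with the fewest. All 10 NK markers, among them Ncr1, Klrb1c and Prf1, were detected in every library, with a summed share of 0.598% to 1.38% of counts. Summed markers reached at most 0.0162% for T cells (mostly Cd28, with Cd3d and Cd3g at medians of 11.4 and 6.90 CPM and detected in all 64 libraries, Cd3e detected in 51, and Cd4 and Cd5 at a median of 0 CPM), 0.0121% for B cells, 0.0268% for macrophages and dendritic cells, 0.0417% for neutrophils, 0.0214% for helper innate lymphoid cells and 0.00281% for erythroid cells. Xist, which marks female cells, had medians of 39.7 CPM in DKO, 652 CPM in EP2KO and 698 CPM in WT libraries, and the Y-linked Ddx3y had medians of 87.1 CPM in DKO, 3.72 CPM in EP2KO and 2.60 CPM in WT, so that sex and the DKO genotype cannot be told apart. Ptger2 had medians of 5.92 CPM in DKO, 6.49 CPM in EP2KO and 7.15 CPM in WT, and Ptger4 had medians of 55.0 CPM in DKO, 27.7 CPM in EP2KO and 25.1 CPM in WT; 3′ tags may lie outside the deleted parts and do not check the genotypes. No label says that replicates came from separate mice or cultures, and p-values therefore cover only the variation among these samples, which may be technical.

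**Figure D1:**
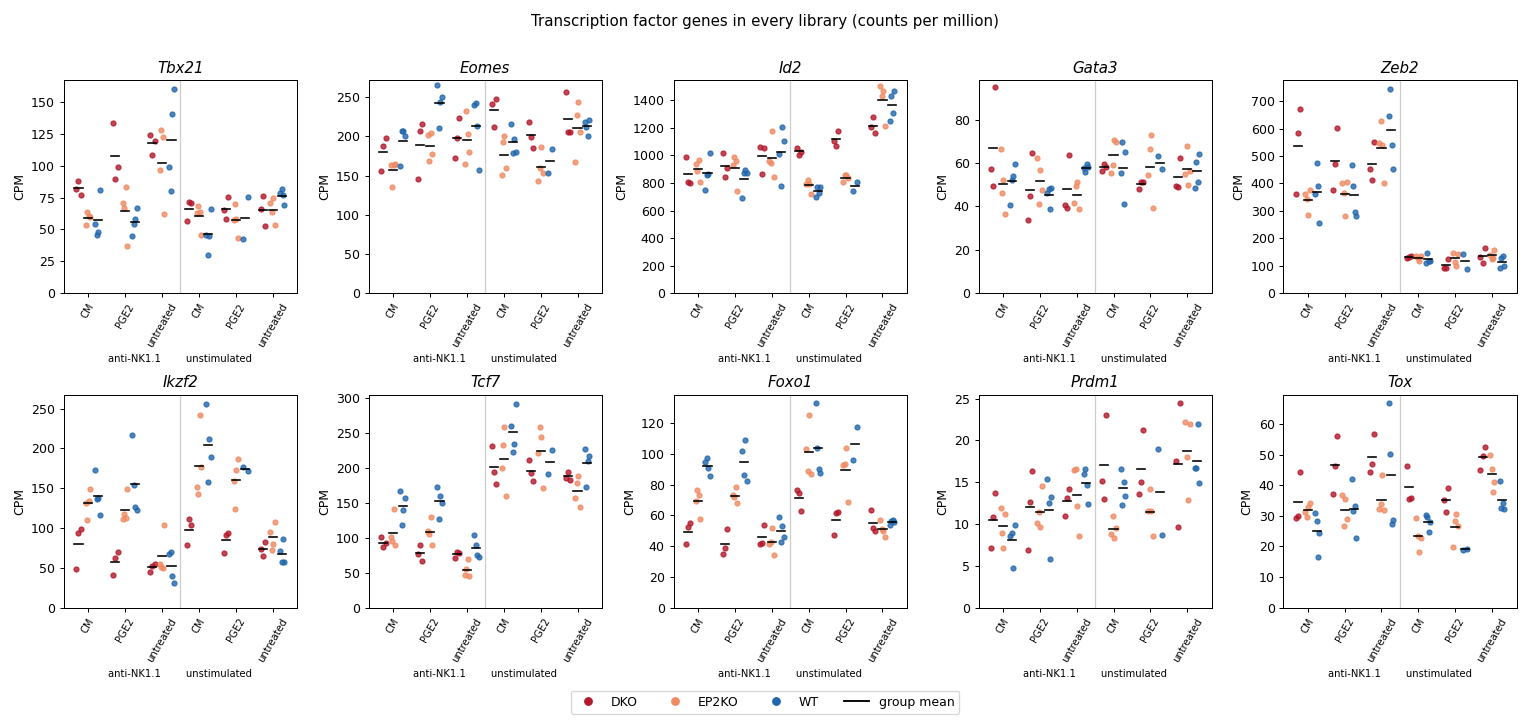
CPM (linear axes from 0) of the 10 genes in each library, with anti-NK1.1-stimulated groups left of the grey line and unstimulated groups right of it; colours mark genotype and black bars are group means. Zeb2 stands at 256 to 743 CPM in stimulated libraries and 88.6 to 164 CPM in unstimulated ones, and Ikzf2 and Foxo1 are higher with CM and PGE2 in EP2KO and WT.

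Stimulation through NK1.1 in untreated cells addressed how these regulators respond to receptor crosslinking alone. Zeb2 and Tbx21 rose and Tcf7 fell in all 3 genotypes, and Id2 fell in EP2KO and WT. The other members did not pass the test in any genotype, among them Eomes, Gata3 and Foxo1. Of the 10 genes, 3 were called in DKO, 4 in EP2KO and 4 in WT (adjusted p under 0.05 over all genes), against 30.2%, 33.3% and 42% of all genes tested, so the share of members called was near that of all genes. Their median log2 fold change was -0.22 in DKO, -0.33 in EP2KO and -0.08 in WT, where all genes tested had medians of 0.01, 0.01 and 0.01.

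Zeb2, the maturation repressor, had the largest change of the 10 genes in each genotype. In WT it was at 647, 743, 541 and 452 CPM in stimulated libraries, against 93.0, 129, 135 and 98.0 CPM in unstimulated ones. The groups did not overlap, and the log2 fold change was 2.39 ± 0.19 (SE, n = 4 each, edgeR adjusted p = 2.85e-16), a 5.23-fold difference of means. In EP2KO Zeb2 was at 547, 626, 539 and 401 CPM in stimulated libraries, against 141, 124, 128 and 158 CPM without antibody, and in DKO at 452, 414 and 552 CPM, against 131, 111 and 164 CPM. These log2 fold changes were 1.94 ± 0.19 in EP2KO and 1.80 ± 0.22 in DKO, again with no overlap, and the difference between genotypes in this response was not tested. Tbx21, which encodes T-bet, was at 99.0, 79.8, 141 and 160.4 CPM in stimulated WT libraries, against 78.5, 81.3, 77.2 and 69.0 CPM in unstimulated ones, and only replicate 2 of the stimulated libraries lay within the unstimulated range. Its log2 fold change was 0.64 ± 0.20 in WT (edgeR adjusted p = 0.00754), 0.64 ± 0.21 in EP2KO (adjusted p = 0.0119) and 0.85 ± 0.23 in DKO (adjusted p = 0.00314). Without stimulated replicate 4 the WT call was lost (adjusted p = 0.0663), and without stimulated replicate 2 or replicate 3 so was the EP2KO call (largest adjusted p = 0.0751).

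Tcf7, which encodes TCF-1, moved the other way. It was at 104, 89.9, 75.0 and 72.4 CPM in stimulated WT libraries, against 227, 173, 211 and 218 CPM in unstimulated ones. In EP2KO it was at 46.5, 56.1, 69.3 and 45.1 CPM with antibody, against 157, 178, 188 and 144 CPM without, and in DKO at 71.5, 80.0 and 78.6 CPM, against 186, 194 and 183 CPM. Stimulated and unstimulated libraries did not overlap in any genotype. Tcf7 fell by 1.27 ± 0.15 on the log2 scale in WT (edgeR adjusted p = 2.35e-10), by 1.63 ± 0.16 in EP2KO and by 1.29 ± 0.17 in DKO. Id2, the E protein antagonist, was at 1009, 777, 1210.1 and 1108 CPM in stimulated WT libraries, against 1251, 1432, 1308 and 1471 CPM in unstimulated ones, again without overlap. Id2 fell by 0.41 ± 0.12 in WT (adjusted p = 0.00394) and by 0.52 ± 0.12 in EP2KO (adjusted p = 0.000378), and its log2 fold change in DKO was -0.29 ± 0.14 (adjusted p = 0.103). With the replicate number as a block, which paired the DKO samples, Id2 (adjusted p = 0.021) and Ikzf2 (adjusted p = 0.0149) were also called lower in DKO. In bulk RNA, fewer cells of a kind and less RNA per cell cannot be told apart. Over the same contrast the summed T cell markers, mostly Cd28, were at 60.9 to 94.2 CPM in stimulated WT libraries, against 121 to 138 CPM in unstimulated ones. Cd28 was called lower in EP2KO (-0.93) and WT (-0.85), the B cell marker Ighm was called lower in DKO (-0.62), EP2KO (-0.59) and WT (-0.71), and of the helper innate lymphoid markers Areg was called higher and Il7r lower in each genotype (2.40 and -1.27 in WT). The part of these markers in the differences was not tested.

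The T-box factor Eomes stayed between 135 and 265 CPM over all 64 libraries. In untreated WT cells it was at 239.9, 242, 213 and 157 CPM with antibody, against 219, 211, 201 and 221 CPM without, with a log2 fold change of 0.00 ± 0.13 and a 95% interval of -0.27 to 0.27. Gata3 was at 57.9, 56.1, 59.5 and 58.4 CPM with antibody, against 48.7, 60.6, 51.4 and 64 CPM without (interval -0.33 to 0.41). Foxo1 had log2 fold changes of -0.27 in DKO, -0.27 in EP2KO and -0.16 in WT, and Ikzf2 -0.53, -0.45 and -0.36. Tox, a factor of early NK development, was at 67.0, 50.3, 27.4 and 28.8 CPM in stimulated WT libraries and 41.4, 32.7, 34.3 and 32.4 CPM in unstimulated ones, so that the stimulated group spanned the other. Prdm1 had a 95% interval of -0.74 to 0.29 in WT, which spans 0.

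**Figure D2:**
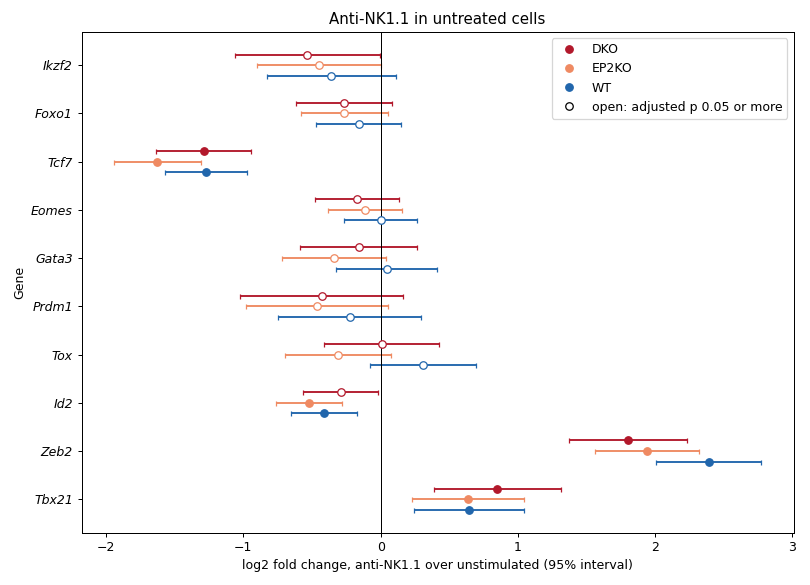
Log2 fold change of each gene for anti-NK1.1 over no stimulation in untreated DKO, EP2KO and WT cells, with 95% intervals derived from the edgeR F statistic. Filled points have an adjusted p under 0.05. Zeb2 lies at 1.80 to 2.39 and Tcf7 at -1.63 to -1.27 in the 3 genotypes.

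CM and PGE2 in stimulated cells asked how a PGE2-containing medium, or PGE2 itself, alters the state reached 4 h after NK1.1 engagement. In both EP2KO and WT, Ikzf2, Foxo1 and Tcf7 rose and Tbx21 and Zeb2 fell, with either treatment. Prdm1 and Tox also fell with CM in WT. None of the 10 was called in DKO. With CM, 5 genes were called in EP2KO and 7 in WT, against 10.4% and 15.4% of all genes tested; with PGE2, 5 were called in each, against 7.29% in EP2KO and 15.6% in WT. The median size of the log2 fold change, sign aside, was 0.78 for the 10 genes with CM in WT and 0.58 with PGE2, where all genes tested had 0.30 and 0.30. The signed medians of the 10 genes were -0.20 with CM and -0.32 with PGE2 in WT, and -0.13 and -0.08 in EP2KO, where all genes had -0.04, -0.05, -0.03 and -0.02. CM and PGE2 were each compared with the same untreated libraries. These stimulated untreated libraries were also the tested group for stimulation alone. Variation in them moves both contrasts in opposite directions, so opposed signs of the contrasts are not independent results.

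Ikzf2, which encodes Helios, had the largest rise of the 10 genes in WT. Stimulated WT libraries held 173, 136, 137 and 116 CPM with CM and 217, 154, 127 and 122 CPM with PGE2, against 67.8, 70.5, 40.2 and 31.2 CPM untreated. Every treated library was above every untreated one, and the log2 fold changes were 1.42 ± 0.22 with CM (edgeR adjusted p = 2.74e-06) and 1.55 ± 0.22 with PGE2 (adjusted p = 3.09e-07). EP2KO libraries held 132, 110.1, 134 and 149 CPM with CM and 111, 118, 113 and 149 CPM with PGE2, against 55.1, 51.0, 49.4 and 104 CPM untreated. Treated and untreated EP2KO libraries did not overlap here either, although untreated replicate 4 stood at 104 CPM, above the 49.4 to 55.1 CPM of the others, and the log2 fold changes were 1.01 ± 0.22 with CM and 0.92 ± 0.22 with PGE2. Foxo1, the forkhead factor of quiescent lymphocytes, was at 94.6, 97.5, 90.6 and 85.6 CPM with CM and 102, 86.4, 109 and 82.6 CPM with PGE2, against 58.6, 42.4, 53.0 and 45.9 CPM untreated in stimulated WT cells. The treated values were all above the untreated ones, with log2 fold changes of 0.88 ± 0.15 (edgeR adjusted p = 7.19e-06) and 0.93 ± 0.15 (adjusted p = 2.49e-06). In EP2KO Foxo1 was at 69.2, 76.6, 73.5 and 57.5 CPM with CM and 73.0, 71.7, 78.4 and 67.8 CPM with PGE2, against 41.5, 42.4, 52.0 and 34.2 CPM untreated, again without overlap, and rose by 0.70 ± 0.15 with CM and 0.78 ± 0.15 with PGE2 on the log2 scale.

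Tcf7, lowered by stimulation alone, rose with either treatment. In stimulated WT cells it was at 166, 118, 139.8 and 157 CPM with CM and 172, 127, 159.7 and 150.3 CPM with PGE2, against 104, 89.9, 75.0 and 72.4 CPM untreated. The unstimulated, untreated WT libraries stood at 227, 173, 211 and 218 CPM, and all 8 treated stimulated ones were at or below 172 CPM. Tcf7 rose by 0.76 ± 0.15 with CM (edgeR adjusted p = 0.000151) and 0.83 ± 0.15 with PGE2 (adjusted p = 3.25e-05) on the log2 scale. In EP2KO it was at 102, 95.2, 141 and 89.5 CPM with CM and 109.9, 105, 129 and 89.1 CPM with PGE2, against 46.5, 56.1, 69.3 and 45.1 CPM untreated. All treated EP2KO libraries were above the untreated ones, with log2 fold changes of 0.98 ± 0.16 and 1.01 ± 0.16.

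Tbx21 and Zeb2, raised by stimulation alone, fell with either treatment. Tbx21 was at 54.5, 45.5, 47.7 and 81.1 CPM with CM and 44.6, 54.0, 58.4 and 66.8 CPM with PGE2, against 99.0, 79.8, 141 and 160.4 CPM untreated in stimulated WT cells. With PGE2 the WT groups did not overlap, with CM replicate 4 reached the untreated range, and Tbx21 fell by 1.07 ± 0.21 with CM (edgeR adjusted p = 8.82e-05) and by 1.1 ± 0.21 with PGE2 (adjusted p = 6.09e-05). In EP2KO Tbx21 was at 53.2, 64, 60.2 and 59.7 CPM with CM and 70.8, 67.2, 83.3 and 36.8 CPM with PGE2, against 96.7, 128, 122 and 62.2 CPM untreated, with overlap in both cases. It fell by 0.79 ± 0.21 with CM (adjusted p = 0.00606) and by 0.65 ± 0.20 with PGE2 (adjusted p = 0.0363). The PGE2 call was lost on leaving out any of 5 libraries (untreated replicates 1, 2 and 3, PGE2 replicates 2 and 4; largest adjusted p = 0.204), and the CM call without untreated replicate 2. Zeb2 was at 359.7, 473, 391 and 256 CPM with CM and 465, 392, 294 and 280.5 CPM with PGE2, against 647, 743, 541 and 452 CPM untreated in stimulated WT cells, and it fell by 0.69 ± 0.18 with CM (adjusted p = 0.00392) and by 0.73 ± 0.18 with PGE2 (adjusted p = 0.00179). The treated WT values remained above the 93.0 to 135 CPM of unstimulated, untreated WT cells, and 1 library of each treated group lay within the untreated stimulated range. In EP2KO Zeb2 was at 361, 342, 286 and 375 CPM with CM and 400.5, 366, 279.8 and 407 CPM with PGE2, against 547, 626, 539 and 401 CPM untreated, with overlap only between PGE2 and untreated libraries. It fell by 0.63 ± 0.18 with CM (adjusted p = 0.012), and its PGE2 value of -0.54 ± 0.18 (adjusted p = 0.0478) was not called by DESeq2 (adjusted p = 0.0579) or on leaving out any of 6 libraries (untreated replicates 1, 2 and 3, PGE2 replicates 1, 2 and 3). The CM call for Zeb2 in EP2KO was lost without untreated replicate 2 or CM replicate 3.

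Blimp-1 and Tox transcripts fell with CM in stimulated WT cells. Prdm1, which encodes Blimp-1, was at 8.60, 8.94, 4.77 and 9.91 CPM with CM, against 16.0, 16.5, 14.6 and 12.5 CPM untreated, without overlap but at 6 to 12 counts per library with CM and 16 to 23 untreated, and it fell by 0.89 ± 0.29 (adjusted p = 0.0277). DESeq2 did not call it (adjusted p = 0.0508), and the call was lost without untreated replicate 1 or 2 or CM replicate 1 or 3. Tox was at 30.8, 28.4, 16.7 and 24.3 CPM with CM, against 67.0, 50.3, 27.4 and 28.8 CPM untreated, and fell by 0.80 ± 0.20 (adjusted p = 0.00299). The Tox groups overlapped, and without untreated replicate 1, the library at 67.0 CPM, the call was lost (adjusted p = 0.0855). With PGE2 in WT, Prdm1 and Tox had log2 fold changes of -0.33 and -0.43, neither called. Id2 had -0.23 with CM and -0.30 with PGE2 in WT; with the replicate block, which paired the PGE2 samples, the PGE2 value was called (adjusted p = 0.0122), as it was by DESeq2 without the block (adjusted p = 0.0315). Eomes and Gata3 were not called with either treatment in any genotype, and their log2 fold changes in stimulated cells ran from -0.32 to 0.19 for Eomes and from -0.35 to 0.48 for Gata3. Summed T cell markers, mostly Cd28, were at 102 to 135 CPM with CM and 105 to 162 CPM with PGE2 in stimulated WT, against 60.9 to 94.2 CPM untreated. Cd28 was called higher with CM and PGE2 in EP2KO (0.74 and 0.83) and WT (0.79 and 0.97), Cd3g was called lower with PGE2 in WT (-1.67), and the macrophage marker Cd14 was called higher with CM (2.67) and PGE2 (1.89) in EP2KO. The part of these markers in the results was not tested.

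**Figure D3:**
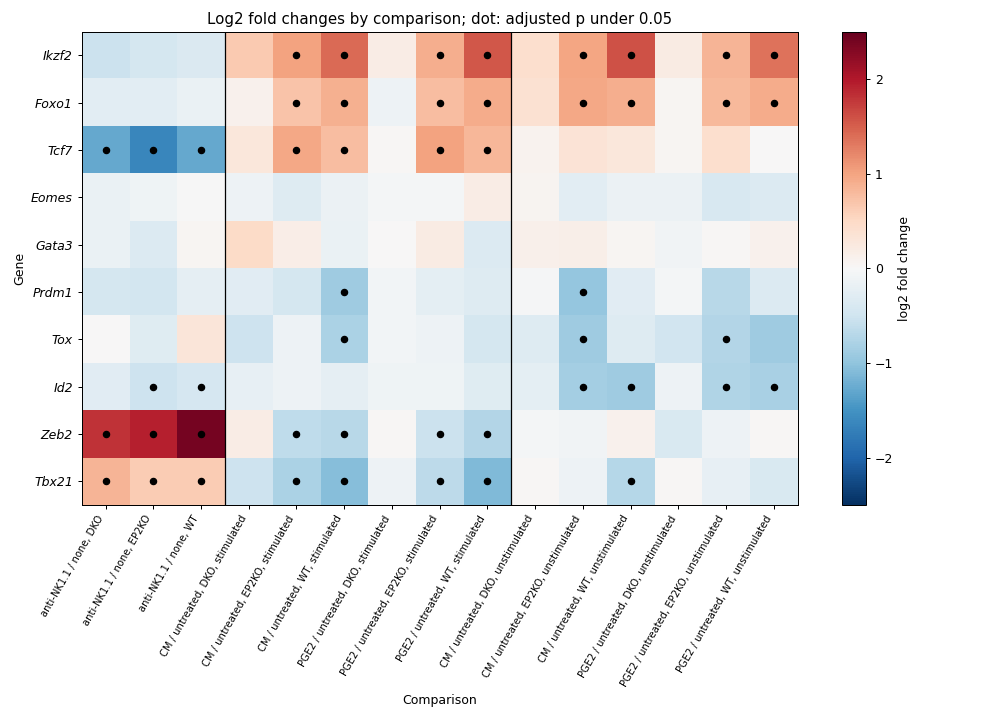
Log2 fold changes of the 10 genes (rows) in 15 comparisons (columns): anti-NK1.1 over no stimulation in untreated cells, then CM or PGE2 over untreated in stimulated and in unstimulated cells, by genotype; red is higher and blue is lower in the first-named condition, and a dot marks an adjusted p under 0.05. Tbx21, Zeb2 and Tcf7 have dots of opposed colour in the stimulation and the stimulated-treatment columns of EP2KO and WT, and the DKO treatment columns have 0 dots. Both sets of columns use the same stimulated untreated libraries, on opposite sides, so their signs are not independent.

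Without stimulation, CM and PGE2 addressed the resting response. Ikzf2 and Foxo1 rose and Id2 fell with both treatments in both EP2KO and WT. Tox fell with both treatments in EP2KO, and Tbx21 fell with CM in WT and Prdm1 with CM in EP2KO. Zeb2 and Tcf7, which moved in stimulated cells, were not called in resting cells. With CM, 5 genes were called in EP2KO and 4 in WT, against 4.37% and 8.23% of all genes tested; with PGE2, 4 were called in EP2KO and 3 in WT, against 3.15% and 2.97%. The median size of the log2 fold change, sign aside, was 0.59 with CM and 0.56 with PGE2 in EP2KO, and 0.30 and 0.36 in WT, where all genes tested had 0.22, 0.19, 0.29 and 0.28. The signed medians of the 10 genes were -0.11, -0.16, -0.04 and -0.16 in that order, against 0.01, 0.01, 0.01 and 0.01 for all genes. The unstimulated WT PGE2 group had 2 libraries, replicates 2 and 4.

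Id2, the lineage factor, was lower in every treated EP2KO and WT library than in any untreated one. Unstimulated WT libraries held 697, 769, 725 and 769.9 CPM with CM and 745 and 809 CPM with PGE2, against 1251, 1432, 1308 and 1471 CPM untreated. EP2KO libraries held 793, 825, 791 and 719 CPM with CM and 808, 859, 856 and 835 CPM with PGE2, against 1505, 1430.4, 1467 and 1214 CPM untreated. The lowest untreated value, 1214 CPM, was above the highest treated one, 859 CPM. Id2 fell by 0.88 ± 0.12 with CM (edgeR adjusted p = 1.63e-07) and by 0.81 ± 0.15 with PGE2 (adjusted p = 0.00018) in WT, and by 0.84 ± 0.12 and 0.74 ± 0.12 in EP2KO. Ikzf2 was at 256, 158, 212 and 189.9 CPM with CM and 177 and 172 CPM with PGE2, against 71.2, 57.4, 85.7 and 57.3 CPM untreated in unstimulated WT cells, with no overlap. Its log2 fold change was 1.59 ± 0.22 with CM (edgeR adjusted p = 3.14e-07) and 1.37 ± 0.26 with PGE2 (adjusted p = 0.000218), the CM value being the largest of any of the 10 genes in the treatment comparisons. In EP2KO Ikzf2 was at 152, 143, 242 and 176 CPM with CM and 159, 124, 173 and 186 CPM with PGE2, against 94.6, 72.8, 80.2 and 108 CPM untreated. These groups did not overlap, and the log2 fold changes were 0.99 ± 0.22 with CM and 0.86 ± 0.21 with PGE2, of which the PGE2 call was lost without untreated replicate 2 (adjusted p = 0.0664).

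Foxo1 was at 133, 104, 90.3 and 87.7 CPM with CM and 95.9 and 117 CPM with PGE2, against 53.8, 56.6, 57.2 and 55.7 CPM untreated in unstimulated WT cells. The 4 untreated values lay within 4 CPM of each other, below every treated one. Foxo1 rose by 0.90 ± 0.15 with CM (edgeR adjusted p = 1.33e-05) and 0.93 ± 0.17 with PGE2 (adjusted p = 0.00018) on the log2 scale, and the PGE2 call was lost without PGE2 replicate 4 (adjusted p = 0.0511), which leaves 1 PGE2 library assumed to vary like the other groups. In EP2KO it was at 103, 88.8, 125 and 86.8 CPM with CM and 93.0, 93.3, 104 and 68.8 CPM with PGE2, against 57.2, 50.9, 49.7 and 45.8 CPM untreated, again without overlap, with log2 fold changes of 0.97 ± 0.15 and 0.81 ± 0.15. Tox in EP2KO was at 29.2, 23.4, 18 and 22.9 CPM with CM and 19.7, 28.3, 30.7 and 26.7 CPM with PGE2, against 50.1, 45.4, 37.7 and 41.0 CPM untreated. All treated EP2KO values were below the untreated ones, and Tox fell by 0.88 ± 0.21 with CM (adjusted p = 0.00512) and by 0.74 ± 0.20 with PGE2 (adjusted p = 0.0239), the PGE2 call being lost without untreated replicate 1 or 2 or PGE2 replicate 1. In WT Tox was at 19.0 and 19.1 CPM with PGE2, against 41.4, 32.7, 34.3 and 32.4 CPM untreated, a log2 fold change of -0.89 ± 0.27 that was not called (adjusted p = 0.0605), and CM gave -0.32 ± 0.21. Tbx21 was at 45.7, 29.7, 45.2 and 66.0 CPM with CM in WT, against 78.5, 81.3, 77.2 and 69.0 CPM untreated, and its call (-0.71 ± 0.22, adjusted p = 0.0359) was lost on leaving out any of 7 of the 8 libraries, all but CM replicate 4. Prdm1 was at 8.76, 10.9, 8.33 and 9.54 CPM with CM in EP2KO, against 22.2, 18, 12.8 and 21.9 CPM untreated (-0.97 ± 0.29, adjusted p = 0.0374), and that call was lost with DESeq2 (adjusted p = 0.0523) and on leaving out any of 7 of the 8 libraries, all but untreated replicate 3. With the replicate block, which paired the EP2KO PGE2 samples, Eomes at -0.40 (adjusted p = 0.0335) and Tcf7 at 0.42 (adjusted p = 0.00391) were called as well. The mitochondrial share of counts in unstimulated WT was 9.34% to 12.3% with CM and 10.5% to 11.1% with PGE2, against 7.28% to 10.1% untreated. Summed B cell markers in unstimulated WT were at 39.7 to 55.7 CPM with CM and 33.0 to 42.3 CPM with PGE2, against 65.7 to 93.9 CPM untreated, and in EP2KO at 56.5 to 72.2 CPM with CM and 40.1 to 49.97 CPM with PGE2, against 61.0 to 106 CPM untreated. Of these markers Ighm was called lower with CM in WT (-0.73) and with PGE2 in EP2KO (-0.82) and WT (-1.19), and Cd79a, Ms4a1 and Pax5 had a median of 0 CPM. The part of the mitochondrial share and of these markers in the results was not tested.

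DKO cells, without EP2 and with Ptger4 targeted by Cre, asked whether these responses need EP2 and EP4. edgeR called 0 of the 10 genes with CM or PGE2, stimulated or not, and DESeq2 also called 0. At an unadjusted p under 0.05, 4 genes passed with CM in stimulated DKO cells, 0 with PGE2 in stimulated cells, and 1 with each treatment in unstimulated cells. Over all genes, edgeR called 8 with CM in stimulated DKO cells (0.0746%) and 0 (0%) in the other 3 comparisons. Unadjusted, 723 of the 10723 genes passed with CM in stimulated cells and 260 with PGE2. In unstimulated cells 485 passed with CM and 184 with PGE2. Ikzf2 in stimulated DKO cells was at 49.1, 93.3 and 99.1 CPM with CM and 40.8, 61.9 and 69.6 CPM with PGE2, against 45.2, 52.5 and 54.5 CPM untreated. Of the CM libraries, replicate 1 lay within the untreated range and the other 2 above it, and the log2 fold change was 0.66 ± 0.26 (95% interval 0.13 to 1.19, edgeR adjusted p = 0.633), with 0.19 ± 0.27 for PGE2. Tbx21 was at 81.6, 87.9 and 77.4 CPM with CM and 134, 89.5 and 98.8 CPM with PGE2, against 124, 109 and 119.7 CPM untreated, and the CM value of -0.51 ± 0.23 (adjusted p = 0.665) was not called although these groups did not overlap. Tcf7 was at 101, 86.3 and 92.7 CPM with CM and 77.2, 89.5 and 67.5 CPM with PGE2, against 71.5, 80.0 and 78.6 CPM untreated. Its 95% intervals were -0.08 to 0.64 with CM and -0.34 to 0.39 with PGE2. Foxo1 was at 41.2, 52.4 and 54.8 CPM with CM and 34.7, 38.8 and 51.2 CPM with PGE2, against 41.6, 41.9 and 53.8 CPM untreated, with intervals of -0.24 to 0.47 and -0.49 to 0.23. Unstimulated DKO cells held Id2 at 1056, 1006 and 1026 CPM with CM and 1108, 1069.8 and 1182 CPM with PGE2, against 1207, 1281 and 1164 CPM untreated, and the intervals were -0.52 to 0.03 and -0.40 to 0.15. The 3 Id2 values with CM were below all untreated ones. Tox, not called in DKO, had means of 39.4 CPM with CM and 35.2 CPM with PGE2 in unstimulated cells, against 49.1 CPM untreated. Its means in stimulated cells were 34.6 CPM with CM and 46.6 CPM with PGE2, against 49.3 CPM untreated. The PGE2 group in unstimulated cells and the CM group in stimulated cells did not overlap the untreated libraries, and the other treated groups did.

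The difference between genotypes in these effects was tested directly. For PGE2 in stimulated cells, the effect in DKO minus that in EP2KO was -0.98 ± 0.24 for Tcf7 (log2, edgeR adjusted p = 0.0189) and -0.91 ± 0.24 for Foxo1 (adjusted p = 0.0354), so that 2 of the 10 genes were called, against 0.951% of all genes. In the same comparison Cd14 was called lower (-4.20), and summed macrophage and dendritic cell markers were at 21.7 to 41.8 CPM with PGE2 and 24.8 to 51.9 CPM untreated in DKO, and at 29.1 to 169.9 CPM with PGE2 and 29.5 to 119.6 CPM untreated in EP2KO; the part of these markers was not tested. Tcf7 had effects of 0.02 in DKO and 1.01 in EP2KO, and Foxo1 had -0.13 and 0.78. The Tcf7 call was lost on leaving out any of 6 of the 14 libraries, with adjusted p up to 0.084 (EP2KO untreated replicates 1 and 4, EP2KO PGE2 replicate 3, DKO untreated replicates 2 and 3 and DKO PGE2 replicate 3). The Foxo1 call was lost on leaving out any of 7 (EP2KO untreated replicates 1, 2 and 4, EP2KO PGE2 replicate 3, DKO untreated replicate 3 and DKO PGE2 replicates 1 and 2), and without the filter on low counts (adjusted p = 0.25). For CM in stimulated cells the same differences were -0.70 ± 0.24 for Tcf7 and -0.59 ± 0.24 for Foxo1. Zeb2 had 0.82 ± 0.27, and none of these was called. There 0.345% of all genes were called, and DESeq2 called 0 of the 10. Unadjusted, 3 of the 10 and 772 of all 10723 genes passed. In unstimulated cells the differences for Id2 were 0.60 ± 0.18 with CM and 0.62 ± 0.18 with PGE2, not called by edgeR (adjusted p = 0.292 and 0.187) but called by DESeq2 (adjusted p = 0.016 and 0.00981). In these 2 comparisons edgeR called 0 members, and 0.214% of all genes with CM and 0.354% with PGE2. Unadjusted, 3 members passed with CM and 2 with PGE2, against 561 and 584 of all 10723 genes. For PGE2, where the numbers paired the samples of both genotypes, the replicate block called Id2 (adjusted p = 0.00762) and Foxo1 at -0.76 (adjusted p = 0.0452). Sex differed together with the DKO genotype in all of these tests.

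For the effect in EP2KO minus that in WT under CM or PGE2, 0 of the 10 genes and 0% of all genes were called. That held stimulated or not, by edgeR and by DESeq2. EP2KO and WT mice differed in the floxed Ptger4 allele as well as in Ptger2, and the unstimulated WT PGE2 group had 2 libraries. Unadjusted, 1 member passed with CM and 2 with PGE2 in stimulated cells, against 266 and 465 of all 10723 genes. In unstimulated cells 0 members passed, against 346 of all genes with CM and 272 with PGE2. The Ikzf2 effect was nominally smaller in EP2KO in all 4 comparisons, with differences of -0.40 (95% interval -1.03 to 0.22) with CM and -0.64 (-1.27 to -0.01) with PGE2 in stimulated cells. In unstimulated cells the Ikzf2 differences were -0.60 (-1.21 to 0.02) with CM and -0.51 (-1.18 to 0.17) with PGE2, and the treatment comparisons share their untreated libraries. Untreated Ikzf2 means were 88.8 CPM in EP2KO and 67.9 CPM in WT unstimulated, and 64.9 and 52.4 CPM stimulated. The stimulated EP2KO mean includes replicate 4 at 104 CPM. The part of these untreated levels in the differences was not tested. Summed neutrophil markers had group medians of 115 to 219.7 CPM in EP2KO, against 15.8 to 105 CPM in WT, and summed macrophage and dendritic cell markers had group medians of 85.1 to 184 CPM in EP2KO, against 21.3 to 76.6 CPM in WT. Over all libraries S100a8 and S100a9 made up most of the neutrophil sum (medians of 29.5 and 12.6 CPM, detected in all 64), Cxcr2 had a median of 0.82 CPM, and Ly6g, Csf3r and Retnlg had a median of 0 CPM; the part of both lists in these comparisons was not tested. For Foxo1 the intervals in stimulated cells were -0.61 to 0.25 with CM and -0.57 to 0.28 with PGE2.

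**Figure D4:**
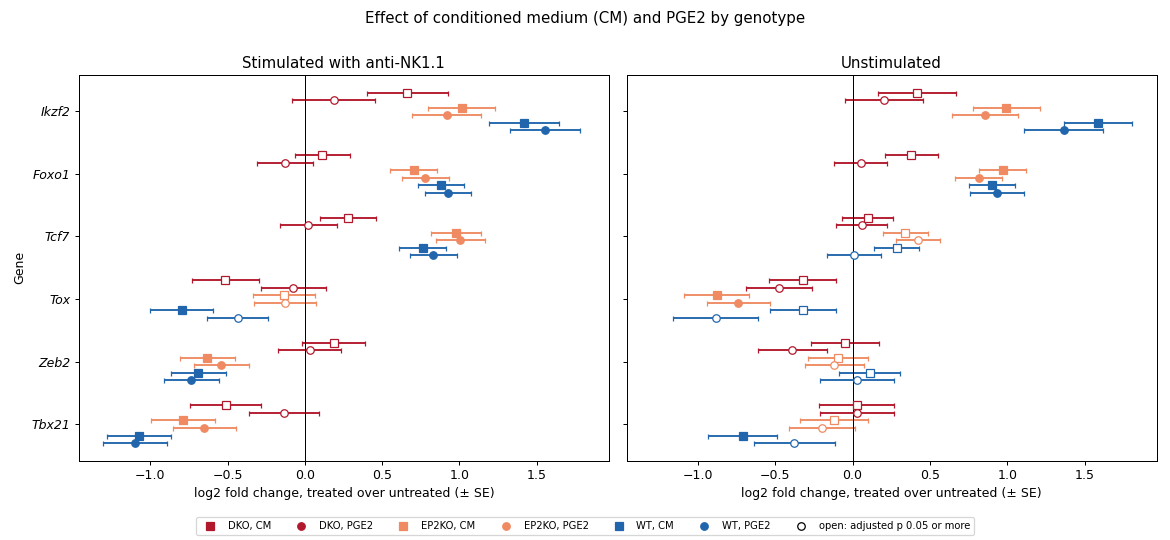
Log2 fold change (± SE) of 6 of the genes with CM (squares) or PGE2 (circles) over untreated, in stimulated cells (left) and unstimulated cells (right), by genotype; filled symbols have an adjusted p under 0.05. In stimulated cells the PGE2 effect on Foxo1 was -0.13 in DKO, 0.78 in EP2KO and 0.93 in WT.

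Whether stimulation altered the treatment effect was tested in WT. Id2 was the 1 member called, and the CM effect in stimulated minus unstimulated cells was 0.65 ± 0.17 (edgeR adjusted p = 0.024, against 2.19% of all genes called), made of -0.23 with stimulation and -0.88 without. That call was lost without the filter on low counts (adjusted p = 0.0576) and without unstimulated untreated replicate 4, stimulated untreated replicate 2 or stimulated CM replicate 4. The PGE2 difference for Id2 was 0.51 ± 0.19 (adjusted p = 0.203), and for Tcf7 it was 0.82 ± 0.23 (adjusted p = 0.0612), which DESeq2 called (adjusted p = 0.0135). For PGE2, edgeR called 0 members and 1.31% of all genes. Unadjusted, 5 members and 1315 of all 10723 genes passed. Cd28 (1.09 with CM and 1.13 with PGE2) and Ighm (0.91 with CM) were called in the same comparisons, and their part was not tested. Zeb2 had -0.80 ± 0.27 with CM and -0.77 ± 0.30 with PGE2, and Foxo1 had -0.02 ± 0.21 and -0.01 ± 0.24, with 95% intervals of -0.44 to 0.41 and -0.48 to 0.46. Foxo1 and Ikzf2 rose with both treatments in both states in EP2KO and WT.

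CM set directly against PGE2 gave 0 called members in each genotype and state by edgeR and by DESeq2. Unadjusted, 1 member passed in stimulated DKO (Gata3, 0.48 ± 0.21) and 1 in stimulated WT (Eomes, -0.32 ± 0.13). Of all 10723 genes, 628 and 491 passed unadjusted there. edgeR called 1 of all genes in stimulated EP2KO and 1 in stimulated WT (0.00933% each) and 0 in the other 4 comparisons, where DESeq2 called 3 in stimulated DKO. Eomes in stimulated WT was at 163, 206, 207 and 200.0 CPM with CM and 265, 211, 244 and 249.7 CPM with PGE2, every CM library being below every PGE2 one. In stimulated WT the interval of the CM minus PGE2 difference was -0.55 to 0.28 for Ikzf2, -0.32 to 0.24 for Foxo1, -0.36 to 0.23 for Tcf7 and -0.41 to 0.47 for Tbx21. Between untreated genotypes edgeR and DESeq2 also called 0 members. edgeR called 0.0839% of all genes for DKO against EP2KO stimulated and 0.056% unstimulated. For EP2KO against WT the shares were 0.0746% stimulated and 0.0653% unstimulated. In that order 2, 0, 1 and 1 members passed unadjusted, against 528, 568, 658 and 774 of all 10723 genes. The largest of these was Tcf7 in stimulated cells, at 46.5, 56.1, 69.3 and 45.1 CPM in EP2KO and 104, 89.9, 75.0 and 72.4 CPM in WT, a log2 difference of -0.66 ± 0.16 (adjusted p = 0.1). All EP2KO values of Tcf7 were below all WT ones there, and without EP2KO replicate 3 the gene was called (adjusted p = 0.0269).

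Across the 18 group means of log2 CPM, the 10 genes fell into patterns that were described by correlation, without a test, since the points share libraries, scaling and controls. Ikzf2 and Foxo1 had a Pearson r of 0.949, and each was opposed to Tbx21 (-0.912 and -0.843) and to Tox (-0.824 and -0.831). Tcf7 was opposed to Zeb2 (-0.916) and to Tbx21 (-0.779). By mean level, Zeb2 was highest in stimulated untreated WT (596 CPM) and lowest in unstimulated PGE2-treated DKO (103 CPM), a 5.78-fold range, while Gata3 ranged 1.48-fold and Eomes 1.55-fold over the 18 groups. Ikzf2 ran from 50.8 CPM in stimulated untreated DKO to 204 CPM in unstimulated CM-treated WT, Tcf7 from 54.2 CPM in stimulated untreated EP2KO to 252 CPM in unstimulated CM-treated WT, and Id2 from 740.2 CPM in unstimulated CM-treated WT to 1404 CPM in unstimulated untreated EP2KO. Among the 3 genes most like each member over the 18 groups were Tmem123, Irs2 and Rgs2 for Ikzf2 (r = 0.976, 0.975 and 0.975), and Rgs2 and Irs2 for Foxo1 (0.978 and 0.966). Rgs2 encodes a regulator of G protein signalling and Irs2 an insulin receptor substrate, and both stood in the lists of Ikzf2 and Foxo1. Tcf7 was most like Cdkn1b, a cell cycle inhibitor, and the chemokine receptor gene Ccr2 (0.986 and 0.982), and Zeb2 was most like Eif4g1, Kdm6b and Ccl9 (0.991, 0.99 and 0.99). Id2 was most like Ncr1, which encodes the activating receptor NKp46 (0.969), then Snai3 and Arpc5l (0.904 and 0.886), and Tbx21 was most like Morrbid, Gimap5 and Glipr1 (0.942, 0.94 and 0.933). Values were lower for Prdm1 (Ggct, Ptpn4 and Podnl1; 0.898, 0.85 and 0.846), Tox (Itgax, Chl1 and Abracl; 0.881, 0.854 and 0.844), Gata3 (Ggnbp2, Ccdc191 and Ncbp3; 0.811, 0.759 and 0.753) and Eomes (Wscd2, Mcm8 and Atm; 0.761, 0.753 and 0.753).

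Of 38 other transcription factors of NK cells, 34 passed the filter on low counts and were tested. Of all genes tested, 42% were called on stimulation of untreated WT cells, with a median log2 fold change of 0.01. Of the 34, stimulation raised 9 and lowered 12, with a median of -0.25. The called genes with the smallest p were Irf8 (1.42), Bhlhe40 (1.12), Zbtb32 (1.85) and Foxp1 (0.81) among those that rose, and Hhex (-1.30), Rora (-1.37), Lef1 (-1.20) and Tcf3 (-0.95) among those that fell. Lef1 is of the same family as TCF-1, and Zbtb32 and Irf8 are factors of NK cell proliferation in viral infection. In EP2KO the counts were 8 and 13 and in DKO 6 and 12, against 33.3% and 30.2% of all genes called in either direction. With CM and PGE2 in stimulated WT cells, 15.4% and 15.6% of all genes were called, with medians of -0.04 and -0.05. Of the 34, CM raised 10 and lowered 4 (median 0.20), and PGE2 raised 10 and lowered 3 (0.28). Those with the smallest p were Hhex (1.29), Satb1 (1.26), Myb (1.73) and Bcl6 (1.29) up and Ikzf1 (-0.79), Zbtb32 (-1.17), Ahr (-1.33) and Foxp1 (-0.46) down with CM, and Satb1 (1.52), Rora (1.52), Hhex (1.18) and Myb (1.80) up and Ahr (-1.69), Zbtb32 (-1.37) and Ikzf1 (-0.60) down with PGE2. The counts in stimulated EP2KO were 9 higher and 2 lower with CM and 8 and 3 with PGE2, against 10.4% and 7.29% of all genes called. In stimulated DKO edgeR called 0 of the 34 with either treatment, against 0.0746% of all genes with CM and 0% with PGE2. There 4 passed unadjusted with CM and 2 with PGE2, against 723 and 260 of all 10723 genes, and DESeq2 called 1 and 0 of the 34. In unstimulated cells CM raised 4 in EP2KO and 10 in WT, PGE2 raised 2 in EP2KO and 4 in WT, and edgeR called 0 lower, where DESeq2 called 1 lower with PGE2 in EP2KO and 1 to 2 were lower at an unadjusted p under 0.05 in each comparison. Of all genes 4.37%, 8.23%, 3.15% and 2.97% were called in these comparisons, in that order. In unstimulated DKO edgeR and DESeq2 called 0 of the 34. Unadjusted, 1 passed with CM and 0 with PGE2, against 485 and 184 of all 10723 genes. Bach2, a repressor that keeps lymphocytes in a less differentiated state, rose by 1.05 with CM and 0.98 with PGE2 in WT, and Myb by 1.49 and 1.47.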

How the data were processed

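The deposited values are raw counts per gene symbol, made by the authors from barcoded 3′ mRNA libraries with unique molecular identifiers, per the labels' protocols. The submitters' processing notes name GRCm38, mm10 and DESeq2; the aligner and counter were not given in those sources, nor whether counts are of reads or molecules. All 64 columns matched a sample. Counts were modelled in R 4.3.3 with edgeR 4.0.16 (filterByExpr with a minimum count of 10, TMM, 18 group means over all 64 libraries, robust quasi-likelihood test, Benjamini-Hochberg over 10723 genes holding 99.21% of counts; called at adjusted p under 0.05). CPM values use TMM-scaled library totals, and log2 CPM a prior count of 2. Alternatives were DESeq2 1.42.0, RLE normalization, no filter, a replicate block and leaving out each library. The members, lists and comparisons were chosen with earlier results of these data known. Named beside the 10 genes were, for each, the 3 genes of highest correlation, and up to 4 called genes of each list per direction with the smallest p; a few genes that this rule names are not reported here. Of 21 comparisons within a genotype, replicate numbers paired the samples in 8, from the data and not the labels (every same-number correlation of residuals over 0.1; range -0.119 to 0.599, with 59 of 73 pairs over 0.1). None of 85 replicate pairs was identical (chi-square per degree of freedom 1.406 to 17.28, median 3.106). The largest value was between replicates 2 and 4 of stimulated untreated WT. In that group replicates 1 and 2 had 5.002, replicates 3 and 4 had 2.596, and pairs across these had 6.528 to 17.28. It is the tested group for WT stimulation and the reference for treatments in stimulated WT. Replicates 1 and 3 of stimulated CM-treated DKO had 15.85. The scripts were tested on simulated data. The SE of a log2 fold change was taken as its size divided by the square root of the quasi-likelihood F statistic. Intervals of fold changes are 95% intervals built from that SE, and library depth limits precision for low genes such as Prdm1.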

Additional observations from a re-analysis of the deposited data

Results flagged for a closer look

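In 110 checks of groups of 4 libraries, 5 had 1 library standing apart from the other 3, where chance gives about 1 in 20. Eomes was at 163 CPM in replicate 1 of stimulated CM-treated WT (others 200.0 to 207 CPM) and at 135 CPM in replicate 2 of stimulated CM-treated EP2KO (others 163 to 165 CPM). Id2 was at 689 CPM in replicate 1 of stimulated PGE2-treated WT (others 873 to 893 CPM). Ikzf2 was at 104 CPM in replicate 4 of stimulated untreated EP2KO (others 49.4 to 55.1 CPM), and Tox was at 43.3 CPM in replicate 3 of the same group (others 31.9 to 33.8 CPM). These libraries differed from gene to gene, and none was left out of the values reported.

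A difference between groups in the same effect was called for 3 values. In stimulated cells the PGE2 effect in DKO minus that in EP2KO was -0.98 for Tcf7 and -0.91 for Foxo1 (log2), and in WT the CM effect on Id2 in stimulated minus unstimulated cells was 0.65. Each lost its call when single libraries were left out, as given beside it.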

How the results depend on the processing

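Of 350 values (10 genes in 35 comparisons), 52 were called; 36 of them kept direction and call under every alternative run, 16 lost the call under at least 1, 0 reversed, and 22 others were called somewhere. Counts of members called that moved by more than 1.5 times, or to or from 0, were as follows. With the replicate block the count was 5 for stimulation in DKO (3 without), where the block called 4113 of all genes (3242 without). For the effect in DKO minus that in EP2KO, PGE2 unstimulated had 2 with the block and 1 with DESeq2 (0 reported). CM unstimulated had 1 with each (0), CM stimulated 2 with the block (0), and PGE2 stimulated 1 without the filter (2). Over all genes the block called 96 for PGE2 unstimulated, 70 for CM unstimulated and 169 for CM stimulated (38, 23 and 37 reported). DESeq2 called 45 of 10723 and 38 of 5526 genes in the 2 unstimulated comparisons. Without the filter 92 of 36164 genes were called for PGE2 stimulated (102 of 10723 reported). For the effect in stimulated minus unstimulated WT, PGE2 had 3 with the block, 2 with DESeq2 and 1 with RLE (0). CM had 3 with the block and 0 without the filter (1). Of all genes these settings called 367, 189 (of 6981) and 135 for PGE2 (140 reported). For CM they called 919 and 139 (of 36164), where 235 were reported. Where the numbers paired the samples by the rule above, the calls the block changed are given with the results. Elsewhere a same-number correlation was 0.1 or lower, or there were only 2 pairs. Over all 21 comparisons 58 of 73 samples correlated best with their own number, so partial pairing there is possible and was not modelled in the main fit. For PGE2 in unstimulated EP2KO, taken as paired, replicate 2 had 0.101 with its own number and 0.222 with another. Leaving out 1 library gave 3 to 5 members for CM in stimulated EP2KO, 3 to 5 for PGE2 in stimulated EP2KO and 2 to 5 for PGE2 in unstimulated EP2KO. It gave 0 to 2 and 0 to 1 for PGE2 and CM in DKO minus EP2KO, stimulated, 0 to 1 and 0 to 2 for PGE2 and CM in stimulated minus unstimulated WT, and 0 to 1 for untreated EP2KO against WT, stimulated. Smaller moves included 6 with the block for PGE2 in unstimulated EP2KO (4 reported) and 6 with the block or DESeq2 for PGE2 in stimulated WT (5). Over all genes the block called 646 in the former (338 reported) and 2330 in the latter (1676), where DESeq2 called 1598. Leaving out 1 library also gave 5 to 7 for CM in stimulated WT (7) and 3 to 5 for stimulation in EP2KO (4). The causes were not tested. RLE scaling moved the median of all genes by at most 0.0243 (log2), DESeq2 by 0.0239 and the lack of a filter by 0.0517. No block was fitted between untreated genotypes, since it lies within a genotype. With 6 to 33 counts in any library, changes of Prdm1 smaller than its intervals were not detectable.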

Other observations

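Of the markers of NK maturation and homing, 16 genes were tested. In untreated cells NK1.1 stimulation lowered 7 of the 16 in DKO, 10 in EP2KO and 10 in WT and raised 1 in each, Cd27 (0.79, 0.55 and 0.54 on the log2 scale), a marker of less mature NK cells; of all genes 30.2%, 33.3% and 42% were called in these genotypes. In WT those that fell included Kit (-1.19), S1pr5 (-1.76) and Cxcr6 (-1.12), and S1pr5 encodes a receptor of egress. In stimulated WT cells CM raised 3, among them Kit (1.06) and Ccr7 (2.24), and lowered Tnfsf10 (-0.67), and PGE2 raised 4, among them Kit (1.23), Ccr7 (2.87) and Cd200r1 (1.44), and lowered Tnfsf10 (-1.10), which encodes the death ligand TRAIL; 15.4% and 15.6% of all genes were called. Stimulated EP2KO cells had 4 higher with CM and 3 with PGE2 and 0 called lower by edgeR or DESeq2 (0 and 1 unadjusted), with Ccr7 at 3.17 and 3.52, and 10.4% and 7.29% of all genes were called. In unstimulated cells the counts higher and lower were 1 and 1 with CM in EP2KO, 1 and 1 with CM in WT, 3 and 1 with PGE2 in EP2KO and 2 and 1 with PGE2 in WT, where 4.37%, 8.23%, 3.15% and 2.97% of all genes were called in either direction. In DKO edgeR and DESeq2 called 0 of the 16 with either treatment in either state. Unadjusted, 0 passed with CM and 1 with PGE2 in stimulated cells, and 2 with CM and 0 with PGE2 in unstimulated cells. In that order 723, 260, 485 and 184 of all 10723 genes passed unadjusted.

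Of the 10 NK markers, stimulation raised Prf1, Gzmb and Nkg7 and lowered the other 7 in each genotype, with Prf1, which encodes perforin, at 1.63 in DKO, 1.56 in EP2KO and 1.63 in WT, and Klrb1c, which encodes NK1.1 itself, at -1.21, -1.54 and -1.18. Of all genes 30.2% in DKO, 33.3% in EP2KO and 42% in WT were called in either direction. Ncr1, the gene nearest to Id2 in pattern, fell in unstimulated cells by 1.40 with CM and 1.18 with PGE2 in EP2KO, and by 1.92 and 1.69 in WT. Klrb1c was called lower there too, at -0.59 with CM and -0.53 with PGE2 in EP2KO, and at -0.63 and -0.88 in WT. CM also lowered Gzmb in both genotypes and Nkg7 in WT. In stimulated EP2KO and WT cells, CM and PGE2 lowered Prf1 and Nkg7. They also lowered Gzmb and Ncr1 in WT, and CM raised Klre1 in EP2KO. Of all genes 2.97% to 8.23% were called in these unstimulated comparisons and 7.29% to 15.6% in the stimulated ones. The part of Klrb1c in the stimulated results was not tested.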
